A study of Mus musculus with 9 samples.

Results

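Hedgehog signalling was described at the level of its promoters with 9 genes that form the core of the pathway, out of 21938 protein-coding genes of GENCODE M21 on mm10. The members were chosen by name and function, by a rule that used no measured value, although earlier results of these data were known: the ligands Shh, Ihh and Dhh, the receptors Ptch1 and Smo, the transcription factors Gli1, Gli2 and Gli3, and the Gli inhibitor Sufu. All cells of the series were C127, an established mouse mammary epithelial line, with no treatment or genetic change named in the labels. The 9 samples were 1 BioCAP library, 1 BioCAP input, 3 ATAC libraries, 1 ATAC input and 3 libraries of 4sU-labelled RNA. Only the non-methylated islands (NMIs) called from the BioCAP library were analysed here. BioCAP enriches genomic DNA with the CXXC domain of KDM2B, a protein module that binds CpG dinucleotides lacking methylation, and an NMI is an interval where the captured reads were enriched. The list of 13491 NMIs gave positions without heights or read counts, so depth was unknown. With 1 library there was no replicate error and no test, and the comparisons below are descriptions of this list. A gene without an NMI in the list is not shown to be methylated, and the set of NMIs used in the study may be larger than this list, so that such a gene may have an NMI there. Of the epithelial markers Krt8, Krt18, Epcam and Cdh1, 0 of 4 had an NMI at a transcription start site (TSS), so this list did not mark the labelled cell type through these genes, whose expression was not analysed here.

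Hedgehog ligands are secreted, lipid-modified proteins that bind Patched 1 (Ptch1). Without ligand, Ptch1 holds Smoothened (Smo) inactive; with ligand, Smo accumulates in the primary cilium and frees the Gli zinc-finger factors from Sufu, and Ptch1 and Gli1 are themselves induced by the pathway. In the embryonic mammary gland, repression of the pathway by Gli3 is needed for buds to form.

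At least 1 TSS lay in an NMI in 5 of the 9 members (Ptch1, Smo, Gli1, Gli3 and Sufu) and in none of the other 4 (Shh, Ihh, Dhh and Gli2). Across all protein-coding genes the share was 47.5% (10425 of 21938, exact Clopper-Pearson 95% interval 46.9 to 48.2%, which covers counting error only), so the count over all members (55.6%) was near the background. In genes of like promoter CpG density, as described below, the mean share was 73.9%, above that of the members. By role, 0 of 3 ligands, 2 of 2 receptors, 2 of 3 Gli factors and the inhibitor Sufu had an NMI. Of the 35 distinct TSSs of the members, 18 lay in an NMI, beside 38.4% of the TSSs of all protein-coding genes. These were 0 of 5 TSSs of ligands, 7 of 12 of receptors, 7 of 11 of Gli factors and 4 of 7 of Sufu. The map of NMIs and predicted CpG islands around the outermost TSS of each member shows where they lie.

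**Figure D1:**
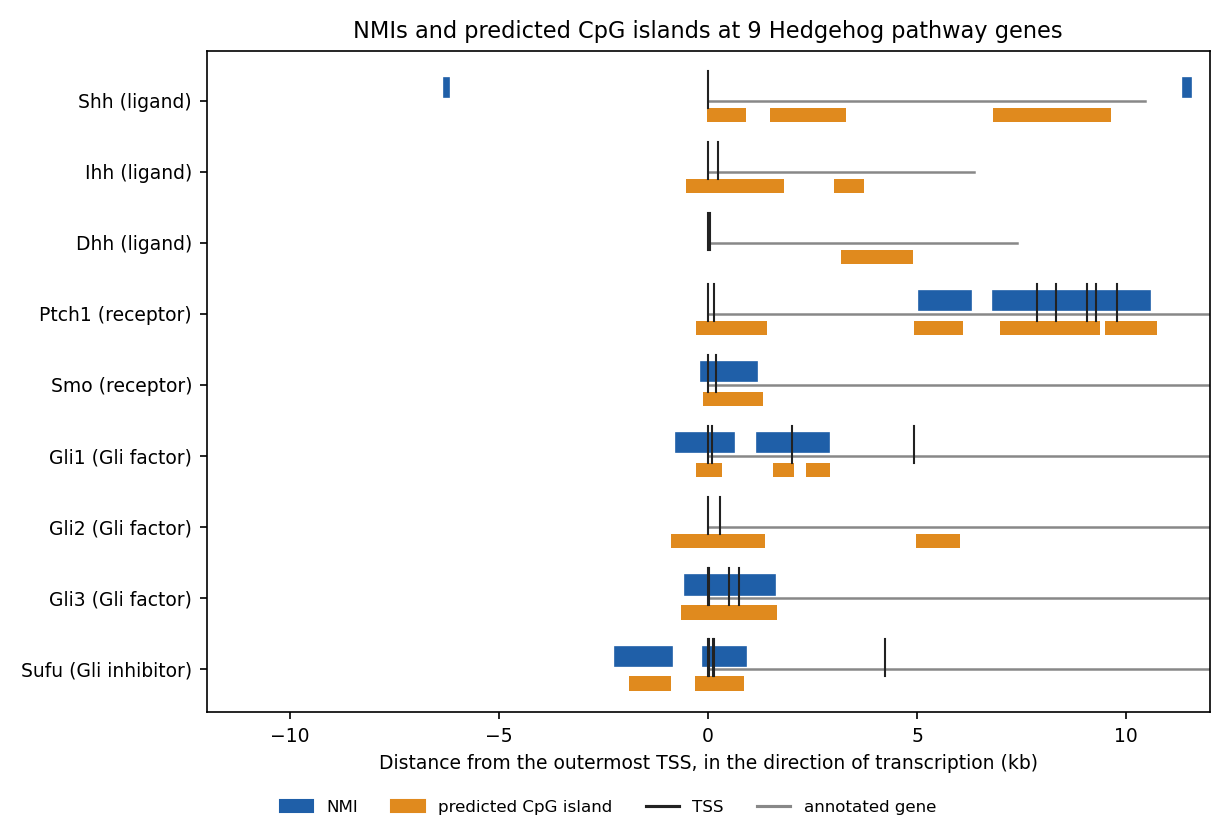
Each row shows 12 kb on either side of the outermost TSS of a member (x axis, kb, in the direction of transcription), with NMIs in blue, CpG islands predicted from sequence in orange, TSSs as black ticks and the gene as a grey line. NMIs cover all TSSs of Smo and Gli3, the TSSs of Gli1 and Sufu except the innermost shown, and inner TSSs of Ptch1, while the islands at the TSSs of Shh, Ihh and Gli2 and at the outermost TSS of Ptch1 have none.

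Promoter sequences from RefSeq (GRCm38.p6, 250 bp before to 50 bp after a start site, given 5′ to 3′ on the gene's strand) were matched for 7 of the 9 members. Shh and Gli1 had no entry. The 3 pairs shown set a promoter that an NMI reached beside a CpG-containing promoter that none reached. The windows of Ptch1 and Gli3 were at inner start sites (63565735 and 15463723), and those of Ihh, Gli2, Sufu and Dhh at the outermost TSS. The outermost TSS of Ptch1 lay in no NMI. CpG dinucleotides are in capitals. Ptch1 (chr13:63565686-63565985, minus strand) held 47 CpG and lay in an NMI over all 300 bp, and Ihh (chr1:74951623-74951922, minus strand) held 30 CpG and lay in none.
Ptch1: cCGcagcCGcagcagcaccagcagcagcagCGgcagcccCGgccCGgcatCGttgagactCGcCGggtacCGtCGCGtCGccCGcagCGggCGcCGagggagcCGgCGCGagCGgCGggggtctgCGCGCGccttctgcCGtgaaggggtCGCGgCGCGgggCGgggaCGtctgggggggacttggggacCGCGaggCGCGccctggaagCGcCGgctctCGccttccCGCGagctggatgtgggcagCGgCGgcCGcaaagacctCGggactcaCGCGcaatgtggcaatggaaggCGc
Ihh: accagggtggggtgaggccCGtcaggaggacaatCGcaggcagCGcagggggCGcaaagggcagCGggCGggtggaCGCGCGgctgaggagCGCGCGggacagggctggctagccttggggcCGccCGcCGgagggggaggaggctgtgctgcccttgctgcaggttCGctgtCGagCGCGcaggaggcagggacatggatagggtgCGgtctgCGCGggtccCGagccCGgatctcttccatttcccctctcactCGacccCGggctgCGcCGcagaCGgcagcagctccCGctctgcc
Gli3 (chr13:15463473-15463772, plus strand) held 39 CpG with 300 bp in an NMI, and its paralogue Gli2 (chr1:119053570-119053869, minus strand) held 28 CpG with 0 bp in an NMI.
Gli3: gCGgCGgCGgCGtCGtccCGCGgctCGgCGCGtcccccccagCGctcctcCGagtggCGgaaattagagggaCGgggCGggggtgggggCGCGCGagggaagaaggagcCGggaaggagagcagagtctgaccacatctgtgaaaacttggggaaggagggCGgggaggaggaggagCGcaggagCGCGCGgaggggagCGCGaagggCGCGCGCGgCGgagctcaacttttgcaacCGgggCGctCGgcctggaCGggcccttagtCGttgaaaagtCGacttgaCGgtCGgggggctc
Gli2: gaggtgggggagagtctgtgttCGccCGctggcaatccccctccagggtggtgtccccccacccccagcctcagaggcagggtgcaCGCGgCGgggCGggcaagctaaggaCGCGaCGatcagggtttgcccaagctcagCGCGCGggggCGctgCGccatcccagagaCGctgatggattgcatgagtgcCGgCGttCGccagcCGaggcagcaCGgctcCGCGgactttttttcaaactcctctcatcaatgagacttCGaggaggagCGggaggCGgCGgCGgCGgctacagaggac
Sufu (chr19:46396646-46396945, plus strand) and Dhh (chr15:98898491-98898790, minus strand) held 12 CpG each, with 182 bp of the former and 0 bp of the latter in an NMI.
Sufu: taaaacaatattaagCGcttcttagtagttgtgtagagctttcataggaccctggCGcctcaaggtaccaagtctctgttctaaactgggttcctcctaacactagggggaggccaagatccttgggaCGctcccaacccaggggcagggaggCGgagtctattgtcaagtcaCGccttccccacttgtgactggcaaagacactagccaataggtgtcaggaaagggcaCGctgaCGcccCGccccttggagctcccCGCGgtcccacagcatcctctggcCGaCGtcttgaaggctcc
Dhh: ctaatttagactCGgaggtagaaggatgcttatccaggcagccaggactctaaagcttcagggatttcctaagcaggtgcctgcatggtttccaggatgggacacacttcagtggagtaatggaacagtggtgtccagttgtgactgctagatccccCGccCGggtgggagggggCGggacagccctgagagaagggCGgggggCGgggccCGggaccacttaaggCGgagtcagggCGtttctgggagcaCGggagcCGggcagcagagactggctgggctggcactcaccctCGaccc
The Smo window held 17 CpG with 204 bp in an NMI. Over 32851 RefSeq promoters the median was 7 CpG, with quartiles at 3 and 20. Ihh and Gli2 thus held more CpG than Smo and Sufu, yet no NMI reached them.

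These windows were searched for 3 short motifs on both strands. GACCACCCA, the consensus that Gli factors bind, was in 0 of 7 member promoters and in 0.253% of all promoters. The GC box GGGCGG, bound by Sp1, occurred in all the matched members except Smo, with 4 copies in Dhh, 2 in Ihh and in Gli3, and 1 in Ptch1, Gli2 and Sufu, beside 35.7% of all promoters with at least 1 copy. The TATA box TATAAA was in 0 of 7 and in 13.6% of all. The GC box contains a CpG, and each matched window held at least 12 CpG, beside a median of 7 over all promoters. The 35.7% is thus not from promoters of like CpG content. None of these motifs contains another, and members with and without an NMI held the GC box.

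The ligands lay outside NMIs at different distances. Sonic hedgehog (Shh), which patterns limb and neural tube, has 1 annotated TSS (chr5, 28467256, minus strand). The nearest NMI began 6189 bp upstream of it. That NMI was 125 bp wide (chr5:28473445-28473569, 5 CpG) and lay in introns of the opposite-strand non-coding genes 9530036O11Rik and Gm26894. Another NMI, of 180 bp (chr5:28455709-28455888, 4 CpG) was intergenic, 927 bp past the 3′ end of Shh. Both were far narrower than the median NMI of 990 bp, and no other NMI lay within 100 kb. The Shh gene held 3 predicted CpG islands of 943, 1823 and 2832 bp, the first of these at the TSS, and 0% of each lay in NMIs. The island of 943 bp also held TSSs of 9530036O11Rik and Gm26894, and that of 2832 bp held a TSS of 9530036O11Rik. Of 4 other protein-coding genes with a TSS within 500 kb, 2 had an NMI.

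Indian hedgehog (Ihh), which acts in growing cartilage and gut, had the most CpG-rich promoter among the ligands. Its TSSs (chr1, 74951672 and 74951442, minus strand) lay in a predicted island of 1812 bp with 8.83 CpG per 100 bp, none of it in an NMI. The nearest NMI (chr1:74920376-74920559, 184 bp) was 30883 bp downstream of the closer TSS and overlapped an exon of Cfap65. Within 100 kb there were 3 NMIs, all without a TSS. The widest (963 bp) overlapped an exon of Fev, which encodes an ETS factor, and ran past the 3′ end of that gene. Ihh lay in a stretch of 204 kb between neighbouring NMIs. Of the protein-coding genes with a TSS within 100 kb, Cfap65, Cryba2, Fev and Cdk5r2 had no NMI at a TSS. Nhej1 had one, 172833 bp from Ihh. Within 500 kb, 21 of 36 other protein-coding genes had one, beside 47.5% of all protein-coding genes.

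Desert hedgehog (Dhh), the ligand of Sertoli and Schwann cells, has its TSSs at chr15, 98898540 and 98898506, minus strand. It was the only ligand with no predicted island at a TSS. An island of 1737 bp with 0% in NMIs lay within the gene, but it held a TSS of Rhebl1, which overlaps Dhh on the same strand. Dhh sat among 12 NMIs within 100 kb, the most of any member. These included an NMI at another TSS of Rhebl1 (1335 bp, 16800 bp downstream). Others were at the TSSs of Lmbr1l (1315 bp, 18690 bp upstream), Kmt2d (1823 bp), Tuba1b (1580 bp), Tuba1a (1022 bp) and Prkag1 (1224 bp). Dhh thus lacked an NMI in a stretch of 35.5 kb between the NMIs of its neighbours Rhebl1 and Lmbr1l.

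Both receptors had an NMI, and they differed in its width and place. Ptch1, the ligand receptor, carried the widest NMI of any member (chr13:63563016-63566791, 3776 bp, 276 CpG). This NMI was as wide as or wider than 99.3% of the 9581 NMIs at TSSs of protein-coding genes. It held 5 of the 10 Ptch1 TSSs, those of Ptch1-201, Ptch1-203, Ptch1-202, Ptch1-207 and Ptch1-206, and lay within the gene, with 755 bp in exons and 3021 bp in introns. The outermost TSSs, those of Ptch1-205 and Ptch1-204, lay in a separate predicted island of 1701 bp with 7.23 CpG per 100 bp and 0% in NMIs, 5038 and 4900 bp from the nearest NMI. A further NMI of 1241 bp (chr13:63567320-63568560) stood between them, 528 bp from the Ptch1 NMI, at the TSS of A930032L01Rik, which the annotation gives no gene class beyond TEC, a transcript that awaits experiment. Of the alternative TSSs of Ptch1, the inner group was thus in an NMI and the outer group was not. The other 3 TSSs, of transcripts without a protein product, were 17700 to 50987 bp from the nearest NMI.

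The NMI of Smo, the signal transducer released by Ptch1, covered both of its TSSs (chr6:29735343-29736683, 1341 bp, 8.58 CpG per 100 bp), with 1181 bp in exons and 0 bp in introns. Its width was near the middle of the range, at or above 63.0% of the NMIs at protein-coding TSSs. The neighbouring NMIs were those of Tspan33, 40950 bp upstream, and Ahcyl2, 6328 bp past the 3′ end.

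The Gli factors were not alike. Gli1, an activator and a readout of the pathway, had its TSSs in 2 separate NMIs, which 1.86% of protein-coding genes did (408 of 21938). The first (chr10:127341356-127342732, 1377 bp) held the outermost TSSs of Gli1-201, Gli1-204 and Gli1-203, and the other (chr10:127339081-127340814, 1734 bp) held the TSS of Gli1-202. A gap of 541 bp separated them. They were the least CpG-dense of the members' NMIs, with 4.28 and 4.44 CpG per 100 bp. The TSS of Gli1-205, a retained-intron transcript, lay 2026 bp from the nearest NMI.

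Gli3, the main repressor of the pathway, lay at the other end of the range. Its NMI (chr13:15462679-15464834, 2156 bp, 9.79 CpG per 100 bp) held all 4 Gli3 TSSs and that of the non-coding gene Gm6556 on the opposite strand, and covered 93.5% of the predicted island there. It was as wide as or wider than 92.5% of the NMIs at protein-coding TSSs. It was also isolated, as the next NMIs were 832651 bp before the gene, at AW209491, and 29033 bp past its 3′ end, an intergenic NMI of 554 bp.

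Gli2, the main activator of the pathway, had 0 of 3 TSSs in an NMI and was the only member with no NMI within 100 kb of the gene, which held for 22.1% of protein-coding genes. The nearest NMI, at Ralb, began 450482 bp upstream of the outermost TSS (chr1, 119053619, minus strand). Of the 11330 protein-coding genes without an NMI at a TSS, on chromosomes that had NMIs, 17.7% were at least as far from one. The median distance of these 11330 genes was 73.1 kb. On the other side the nearest NMI was at Clasp1, 374483 bp past the 3′ end. The stretch between these NMIs spanned 1044 kb, and 468 of 13469 gaps between neighbouring NMIs (3.47%) were at least as long. Tfcp2l1 and Inhbb also lay in it and had no NMI. At the Gli2 TSS a predicted island of 2238 bp held 6.03 CpG per 100 bp, and 0% of it lay in NMIs. This island was close in width to that of Gli3 (2305 bp), which was the denser with 9.24 CpG per 100 bp.

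Sufu, which binds Gli factors and keeps them out of the nucleus, had the narrowest NMI of the members (chr19:46396764-46397801, 1038 bp, 6.65 CpG per 100 bp). It was as wide as or wider than 38.3% of the NMIs at protein-coding TSSs. It held 4 of 7 Sufu TSSs, those of the protein-coding transcripts Sufu-201, Sufu-202, Sufu-204 and Sufu-203, with 389 bp in exons and 517 bp in introns. Actr1a, a gene on the opposite strand, had its own NMI of 1369 bp that ended 863 bp upstream of Sufu, with a gap of 730 bp between the NMIs. The 3 non-coding Sufu transcripts began 3323 to 41775 bp from the nearest NMI.

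The 6 NMIs at members' TSSs had a median width of 1555.5 bp (range 1038 to 3776 bp), beside 1173 bp for the 9581 NMIs at protein-coding TSSs. In all, 42 NMIs lay within 100 kb of the members. Besides the members' own, 23 held a TSS of another gene (median 1315 bp) and 13 held no TSS (median 247 bp, 125 to 1113 bp). Of these 13, 9 were no wider than 572.5 bp, the lower quartile of the list. Near a ligand lay 10 of the 13, beside 17 of all 42 NMIs, and 12 of those 17 were near Dhh. The share of NMIs without a TSS over the whole list is not given here, so this count is not a trait of the ligands. The NMIs without a TSS had a median of 3.05 CpG per 100 bp, beside 6.98 for the members' own and 6.69 for those of other genes. Both NMIs near Shh and 2 of the 3 near Ihh were among the narrow ones. The plot of width against CpG density shows the 3 classes without gene names. Protein-coding genes had a median of 3 NMIs within 100 kb (quartiles 1 and 5). Gli2 had 0, Shh and Gli3 had 2 each, Ihh, Ptch1 and Smo 3 each, Gli1 8, Sufu 9 and Dhh 12. These counts include the members' own NMIs. Both the lowest count (Gli2) and the highest (Dhh) were at members without an NMI at a TSS.

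**Figure D2:**
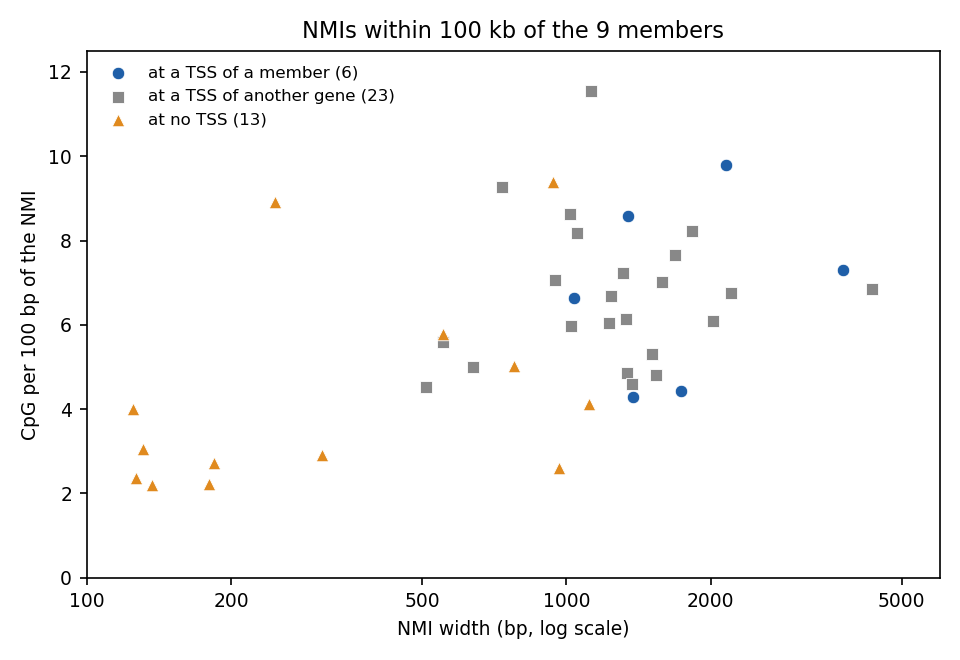
Width (x axis, bp, log scale) and CpG density (y axis, CpG per 100 bp) of each of the 42 NMIs within 100 kb of a member, with circles for the 6 at a member's TSS, squares for 23 at a TSS of another gene and triangles for 13 at no TSS. The circles lie at 1038 bp and above, and 9 of the triangles lie at or below 572.5 bp.

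CpG density is the main sequence feature that an NMI shares with a CpG island, so each member was set beside genes of like density. Density was counted within 500 bp of the outermost TSS, and protein-coding genes were split by density into 10 groups of equal size. Shh had 3.50 CpG per 100 bp, and 42.5% of the genes in its group had an NMI. Dhh had 4.10 CpG per 100 bp, in a group where 69.9% had one, but this density was the lower limit of its group, and the share was 42.5% in the group just below. Gli2 and Ihh stood higher, with 6.49 and 10.1 CpG per 100 bp, and in their groups 82.4% and 83.9% of genes had an NMI. Ihh was at or above 93.5% of protein-coding genes in density. At their outermost TSSs the members with an NMI ranged from 4.90 (Gli1) through 5.69 (Ptch1), 5.99 (Sufu) and 6.19 (Smo) to 10.99 (Gli3). The value of Ptch1 is that of its outer TSS, which had no NMI. Around the 5 Ptch1 TSSs that lay in its NMI, density ran from 5.39 (Ptch1-202) to 11.7 (Ptch1-201), and around Smo-201 it was 7.99. Ptch1-201 was thus above the outermost TSSs of both Ihh and Gli2, and Smo-201 above that of Gli2. The members with and without an NMI overlapped in density at their outermost TSSs.

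**Figure D3:**
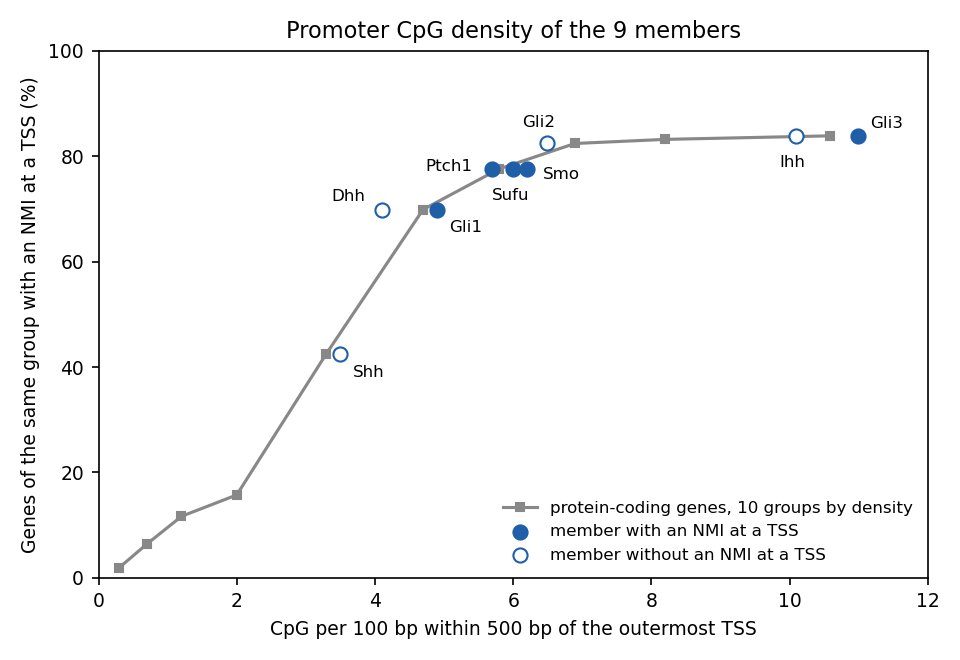
CpG per 100 bp within 500 bp of the outermost TSS (x axis) against the percentage of protein-coding genes in the same density group that had an NMI (y axis). Grey squares are the 10 density groups at their median density, filled circles the 5 members with an NMI and open circles the 4 without, of which Gli2 and Ihh lie where 82.4% and 83.9% of genes had one.

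Predicted CpG islands were also compared. An island was a run of sequence whose 500-bp windows reached 55% GC and a ratio of 0.65 between observed and expected CpG. Of 11 islands at members' TSSs, 7 overlapped an NMI, beside 74.0% of the 12324 islands at protein-coding TSSs. The 4 without were those of Shh (943 bp), Ihh (1812 bp), Gli2 (2238 bp) and the outer promoter of Ptch1 (1701 bp). When the islands at protein-coding TSSs were split by width into 10 groups of equal size, 71.05% (Shh), 78.9% (Ihh and Ptch1) and 69.9% (Gli2) of the islands in the same group overlapped an NMI. Where an NMI was present it covered most of the island, from 83.8% at Sufu and 87.7% and 100% at Ptch1 to 91.6% at Smo, 93.5% at Gli3 and 100% of both islands at Gli1.

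The wider pathway was described with 68 genes in 6 lists, and 40 of the 68 (58.8%) had an NMI at a TSS, beside 47.5% of protein-coding genes and a mean of 73.5% in genes of like CpG density. Genes that modify and release the ligand had one in 2 of 6 cases. Hhat, which adds palmitate to the ligand, had an NMI of 851 bp and Disp1, which releases it, one of 713 bp. Disp2, Scube1, Scube2 and Scube3 had none, and the nearest NMI was 2221 bp from Scube1 and 10884 to 55443 bp from the others. Among cell surface proteins that bind the ligand, the co-receptors Gas1 (3561 bp), Cdon (1381 bp) and Boc (1362 bp) had an NMI. Hhip, which sequesters the ligand, and Lrp2 were among those without, with the nearest NMI at 423 and 60933 bp. All 3 co-receptors of this list thus shared with Ptch1 an NMI at a TSS.

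Regulators inside the cell formed the largest lists with the Hedgehog response genes. Of regulators of Smo and the cilium, 11 of 14 had an NMI, among them Arrb1 (1419 bp), Grk2 (1172 bp) and Arrb2 (1168 bp), of which Grk2 phosphorylates Smo and the arrestins bind it. The 3 without were Evc, Evc2 and Gpr161, with the nearest NMI 2459, 7392 and 13467 bp away. Of regulators of the Gli factors, 16 of 17 had one, the widest at the kinase Gsk3b (3489 bp), the ubiquitin ligase scaffolds Cul3 (2254 bp) and Cul1 (1763 bp) and the protein kinase A subunit Prkar1a (1959 bp). Dzip1, a cilium protein that binds Gli factors, was the exception, at 11846 bp. Many of these genes act in other pathways too.

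Genes known to respond to the pathway in some tissue had an NMI in 6 of 17 cases. The widest were at Ccnd1 (4886 bp), Cdk6 (3509 bp), Foxf2 (2640 bp) and Bcl2 (1254 bp), which act in the cell cycle, development and survival. Among those without, Foxf1 (236 bp), Foxa2 (1336 bp) and Foxl1 (1613 bp), which are forkhead factors, had an NMI close by, while Ccnd2 was 29277 bp from one. Of zinc-finger genes related to Gli, 2 of 8 had one, at Glis3 (3013 bp) and Glis2 (1400 bp). Glis1, Zic1 and Zic2 were among those without, and the nearest NMI was 55878 to 884352 bp away. The mean share of genes with an NMI in the density groups that the genes of a list belonged to was 78.6% for the response genes and 70.1% for the regulators of Gli, the reverse of the order of their own counts, 35.3% and 94.1%. The bars by list show these shares.

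**Figure D4:**
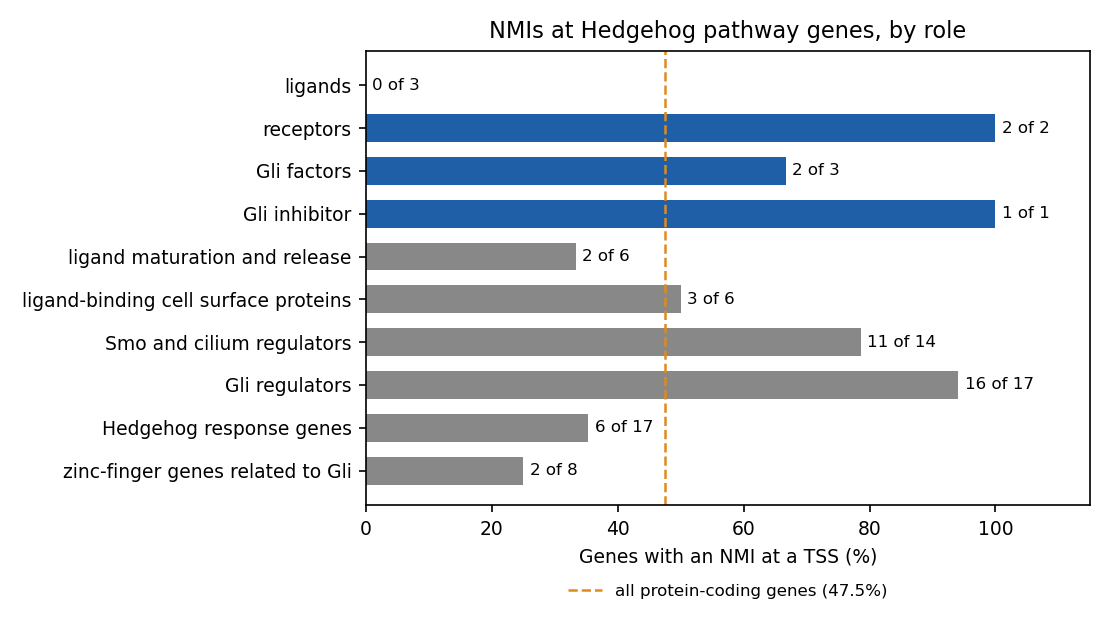
Percentage of genes with an NMI at a TSS (x axis) for the 4 roles of the members (blue) and 6 wider lists (grey), with counts beside the bars and a dashed line at 47.5% for all protein-coding genes. The ligands are at 0 of 3, and the regulators of Gli are the highest of the wider lists at 16 of 17.

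Genes with the most similar NMI placement within 5 kb of the outermost TSS were found by the Jaccard index, the shared NMI length divided by the combined length, over 10801 protein-coding genes with an NMI in that window. The Smo profile was nearest to those of Eef2k (0.995) and Stx5a (0.990), and that of Gli3 to Micall1 and Nfe2l2 (0.987 each). Gli1, with its NMI pair, was nearest to Fbxl12 (0.814) and Nab2 (0.810). Sufu, with the NMI of Actr1a in the window, was nearest to Aebp1 (0.776) and Sbds (0.775). Ptch1 had no NMI in its window of 5 kb and no profile. The index compares 1 library with itself across genes, and it was given no test.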

How the data were processed

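The authors deposited the NMIs of 1 BioCAP library of C127 cells as chromosome, start and end positions. Reads were aligned to mm10 with Bowtie2, reads without a unique position were discarded, duplicates were removed with SAMtools, and NMIs were called with MACS (MACS2 in the submitters' processing notes). Tool versions were not given in the sources used here. Use of the input as a control is not stated. Islands under the enrichment threshold are missing from the list, and reads without a unique position are lost at repeated sequence.

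Starts were converted to count from 1. TSSs were the 5′ ends of all transcripts in GENCODE M21, and a gene had an NMI when at least 1 bp of an NMI lay on a TSS. CpG counts and predicted islands came from GRCm38.p6, whose coordinates are those of mm10. Python 3.11.15 and numpy 2.4.6 were used, and the interval and island code was tested on simulated data. The other samples were not analysed here. Members and lists were chosen with earlier results of these data known, so that the list counts are descriptions. Genes named were all members, up to 4 genes of each wider list with the widest NMIs and up to 4 without (alphabetical), owners of neighbouring NMIs and, by Jaccard index, 2 genes for each member with an NMI in its window. Ralb, Clasp1, AW209491, Tfcp2l1, Inhbb, Cryba2, Cdk5r2, Nhej1 and the motifs were chosen after values were seen. A few genes named by this rule are left out of the text.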

Additional observations from a re-analysis of the deposited data

How the results depend on the processing

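The count of 5 members with an NMI was the same when a TSS within 250 or 1000 bp of an NMI was accepted, when a TSS had to lie within 500 bp of an NMI's middle, with protein-coding transcripts only, with basic transcripts only and without NMIs up to the lower quartile of width. With the outermost TSS only it was 4, because Ptch1 was lost. The ligands and Gli2 had no NMI in any of these settings. The share of protein-coding genes with an NMI was 48.2%, 49.0%, 46.3% and 46.7% in the first 4 of these settings, 42.5% with the outermost TSS and 45.3% without narrow NMIs. With basic transcripts only, 10 of 15 members' TSSs lay in an NMI, and with protein-coding transcripts only 14 of 21. When a TSS had to lie within 500 bp of an NMI's middle, 12 of 35 did. The share over all TSSs of protein-coding genes is not given for these settings. Counting NMIs within 1000 bp of a TSS, which takes in that of Actr1a, the median width was 1377 bp. The number of NMIs near members was 26 within 50 kb and 82 within 250 kb. With CpG density counted over 1000 bp on either side, the share of genes of like density with an NMI was 51.1% for Shh and for Dhh, 80.2% for Gli2 and 80.8% for Ihh. No result reversed. Looser island criteria (at least 200 bp, GC 50%, ratio 0.6) gave 7 of 10 islands with an NMI, and Shh then had none at its TSS. No paired analysis was possible because 1 library gave the list and no test was made. Without heights or read counts, an island just under the calling threshold cannot be told apart from one with no captured DNA.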
